A study of Homo sapiens with 6 samples.

Results

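The thrombospondins THBS1, THBS2, THBS3, THBS4 and COMP (also called thrombospondin 5) and their receptor CD36 were examined in A673/TR/shEF cells under EWSR1::FLI1 high and EWSR1::FLI1 low conditions. These 6 genes were taken by symbol from the 26364 symbols measured. They were chosen by their FPKM values in these libraries, in the contrast of EWSR1::FLI1 low against EWSR1::FLI1 high, so their levels are described here without a test. A673 cells come from an Ewing sarcoma with an EWSR1::FLI1 fusion. Their derivative A673/TR/shEF expresses a tetracycline repressor and holds a doxycycline-induced shRNA against the fusion mRNA. The EWSR1::FLI1 high group comprised 3 untreated samples, and the EWSR1::FLI1 low group comprised 3 samples of the same engineered cells stimulated with 1 µg/mL doxycycline for 72 h. Both groups carried the repressor and the shRNA and grew with blasticidin and zeocin. No doxycycline-treated cells without the shRNA were analysed here, so an effect of doxycycline itself cannot be told apart from the knockdown. The submitters describe the samples of a group as independent clones in one place and number them as experiments in another, so p-values measure only the spread between these samples, which may be technical.

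Thrombospondins are secreted calcium-binding glycoproteins that assemble into oligomers and act between cells and the extracellular matrix. THBS1 and THBS2 form trimers and hold type 1 repeats, through which they bind CD36, whereas THBS3, THBS4 and COMP form pentamers and lack these repeats. THBS1 is known for inhibiting angiogenesis and for activating latent TGF-beta, and COMP and THBS4 are known from cartilage and tendon. CD36 is a membrane receptor that binds thrombospondin type 1 repeats and takes up fatty acids.

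RNAseq reads on genes numbered from 6980361 to 16658933 per library. FLI1, whose 3' part the fusion transcript contains, was listed at 11.3 to 14.2 FPKM, fragments scaled for gene length and library depth, in EWSR1::FLI1 high and at 2.91 to 4.29 FPKM in EWSR1::FLI1 low (log2 fold change of -1.57, adjusted p = 0.000676 by limma with Benjamini-Hochberg adjustment). The 6 Ewing sarcoma markers (NR0B1, NKX2-2, CD99, STEAP1, PRKCB and LIPI) were above 0 and summed to 581 to 600 FPKM in EWSR1::FLI1 high and to 161 to 194 FPKM in EWSR1::FLI1 low. EWSR1::FLI1 low replicate 1 stood apart for weakly expressed genes. It held the highest value of 51.6% of the 7775 genes with a mean FPKM from 0.1 to under 0.5, and each of the other libraries held that of at most 15.1%. Member values are therefore also given without this library.

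The upstream sequences of THBS1 and COMP are shown because these genes lay at opposite ends of the family in EWSR1::FLI1 low, THBS1 as the most abundant thrombospondin and COMP as the least abundant. THBS1 (ENSG00000137801) lies on the plus strand at chr15:39873280-39891667 and COMP (ENSG00000105664) on the minus strand at chr19:18893583-18902114 (GRCh37). The 250 bases before each RefSeq start lay at chr15:39873030-39873279, plus strand, and at chr19:18902115-18902364, minus strand. They end next to the annotated gene spans and are written 5′ to 3′, with GGAA, the core word of ETS factors such as FLI1, in capitals on either strand (TTCC is its reverse complement).
THBS1 upstream: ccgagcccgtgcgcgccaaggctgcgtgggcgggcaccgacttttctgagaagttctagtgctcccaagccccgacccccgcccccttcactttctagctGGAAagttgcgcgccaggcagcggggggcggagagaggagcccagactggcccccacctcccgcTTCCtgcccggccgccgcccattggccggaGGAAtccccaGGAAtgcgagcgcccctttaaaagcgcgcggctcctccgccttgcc
COMP upstream: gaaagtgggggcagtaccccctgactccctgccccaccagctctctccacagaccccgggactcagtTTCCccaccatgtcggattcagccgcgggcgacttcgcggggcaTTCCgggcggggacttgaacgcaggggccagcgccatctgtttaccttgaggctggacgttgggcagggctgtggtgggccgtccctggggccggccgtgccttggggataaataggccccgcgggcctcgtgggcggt

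GGAA occurred 4 times before THBS1 and 2 times before COMP. It is a common word, found on either strand in 92.7% of 35116 promoters of the same length with a median of 3 matches. GGAAGGAAGGAA, the repeat that EWSR1::FLI1 is known to bind, was in no upstream window of the 6 genes and in 0.0712% of all promoters. The GC box GGGCGG occurred 4 times before THBS1, as 4 or more in 7.63% of promoters, and 2 times before COMP, as 2 or more in 24.3% of promoters. Both windows held 1 match of GGAATG, the TEAD-type word, which overlaps GGAA and was found in 11.9% of promoters. CCGGAA, an extended ETS word that also overlaps GGAA, was in the COMP window and not in that of THBS1, and in 14.5% of promoters. It was also in windows of THBS3 (chr1:155178970-155179219, 1 match) and THBS4 (chr5:79286905-79287154, 2 matches, and chr5:79331596-79331845, 1 match). In all, 3.17% of promoters held 2 or more. The first of these THBS4 windows held 6 matches of GGAA, as 6 or more in 9.14% of promoters. The THBS2 window (chr6:169653942-169654191, minus strand) held 2 matches of GGAATG, against 2 or more in 0.94% of promoters, and a TATAAA word, which 10.7% of promoters hold. These matches are descriptions of letters and do not show binding.

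Upon EWSR1::FLI1 knockdown, THBS1 was the member with the largest difference. THBS1 was measured at FPKM values of 0.460, 0.589 and 0.588 (EWSR1::FLI1 high, replicates 1 to 3) against 12.4, 22.5 and 19.0 (EWSR1::FLI1 low, replicates 1 to 3). The lowest EWSR1::FLI1 low library was far above the highest EWSR1::FLI1 high library. The means were 0.546 ± 0.0740 and 18.0 ± 5.11 FPKM (SD, n = 3), a ratio of 32.9. Reads on THBS1 numbered 33 to 35 per EWSR1::FLI1 high library and 801 to 2146 per EWSR1::FLI1 low library, and the ratio from the summed reads was 33.7 with a 95% interval of 27.7 to 41.4 (all read-based intervals here cover counting error only). Among the genes above 0 in each library, THBS1 moved from the 32.1 to 38.5 percentile in EWSR1::FLI1 high to the 79.7 to 84.2 percentile in EWSR1::FLI1 low. Its log2 fold change was 3.58 (SE 0.22) on the log2(FPKM + 1) scale, on which differences of weakly expressed genes come out smaller, and 5.0 (SE 0.32) by limma-voom on the reads. It was number 34 among the increases of all genes tested. Without EWSR1::FLI1 low replicate 1, the ratio was 38.0. In bulk samples, a higher share of cells with THBS1 RNA and more of it per cell cannot be told apart.

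THBS2, the other trimeric member, was near the limit of detection. It was measured at FPKM values of 0.130, 0.213 and 0.110 (EWSR1::FLI1 high, replicates 1 to 3) against 0.344, 0.352 and 0.327 (EWSR1::FLI1 low, replicates 1 to 3). The groups did not overlap, but the values rested on 5 to 30 reads per library. The means were 0.151 ± 0.0550 and 0.341 ± 0.0128 FPKM (SD, n = 3). In total, 23 reads in EWSR1::FLI1 high and 65 in EWSR1::FLI1 low gave a ratio of 2.27 with a 95% counting interval of 1.39 to 3.82. THBS2 (ENSG00000186340, chr6:169615875-169654145, minus strand) did not reach the mean of 0.5 FPKM required for the fit.

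Of the pentameric members, THBS3 (ENSG00000169231, chr1:155165379-155178842, minus strand) was the most abundant. Its FPKM values were 3.88, 3.67 and 3.85 (EWSR1::FLI1 high, replicates 1 to 3) against 11.4, 17.0 and 14.7 (EWSR1::FLI1 low, replicates 1 to 3). The groups were well separated, and EWSR1::FLI1 low replicate 1 was the lowest of its group for THBS3, as it was for THBS1. The means were 3.80 ± 0.114 and 14.3 ± 2.81 FPKM (SD, n = 3), a ratio of 3.77, with a log2 fold change of 1.66 (SE 0.18). Reads numbered 97 to 135 and 335 to 760 per library, and the counting interval of the ratio was 3.35 to 4.26.

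THBS4 (ENSG00000113296, chr5:79287134-79379110, plus strand) was measured at FPKM values of 0.839, 0.380 and 0.675 (EWSR1::FLI1 high, replicates 1 to 3) against 1.76, 1.88 and 1.29 (EWSR1::FLI1 low, replicates 1 to 3). All EWSR1::FLI1 low libraries were above all EWSR1::FLI1 high libraries, with the nearest at 0.839 and 1.29 FPKM. The means were 0.631 ± 0.233 and 1.64 ± 0.313 FPKM (SD, n = 3), a ratio of 2.60. On the log2(FPKM + 1) scale the difference was 0.70 (SE 0.18), and by limma-voom on the reads it was 1.34 (SE 0.37). Summed reads of 62 in EWSR1::FLI1 high and 186 in EWSR1::FLI1 low gave a ratio of 2.41 with a 95% counting interval of 1.80 to 3.26.

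COMP, which binds collagens and matrilins in cartilage, was listed at FPKM values of 0.0777, 0.102 and 0 (EWSR1::FLI1 high, replicates 1 to 3) against 0.229, 0.249 and 0.105 (EWSR1::FLI1 low, replicates 1 to 3). Every EWSR1::FLI1 high library lay under the value of 3 reads, which was 0.117 to 0.158 FPKM there. With 4 reads in EWSR1::FLI1 high and 14 in EWSR1::FLI1 low, the ratio of 2.81 had a 95% counting interval of 0.882 to 11.7. These reads are too few to describe a difference.

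CD36 (ENSG00000135218, chr7:79998891-80308593, plus strand) was the member whose mean was lower upon knockdown. It was measured at FPKM values of 1.44, 1.25 and 1.67 (EWSR1::FLI1 high, replicates 1 to 3) against 1.68, 0.741 and 1.02 (EWSR1::FLI1 low, replicates 1 to 3). EWSR1::FLI1 low replicate 1 was the highest of all libraries, so the groups overlapped, and without it the EWSR1::FLI1 low libraries lay below all EWSR1::FLI1 high libraries. The means were 1.45 ± 0.209 and 1.15 ± 0.482 FPKM (SD, n = 3), a ratio of 0.789, which became 0.606 without that library. Summed reads of 206 in EWSR1::FLI1 high and 200 in EWSR1::FLI1 low gave a ratio of 0.779. Its 95% counting interval of 0.638 to 0.951 leaves out the spread between libraries, which overlapped. The log2 fold change was -0.21 (SE 0.20) with all libraries and -0.38 (SE 0.16) without EWSR1::FLI1 low replicate 1. The part of that library's high values for weakly expressed genes in the CD36 level was not tested.

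Thus 5 of the 6 genes, all but CD36, had every EWSR1::FLI1 low library above every EWSR1::FLI1 high library, an arrangement found in 14.3% of the 24488 genes above 0 in any library and in 17.5% of the genes that were tested. The mean filter was passed by 4 members, THBS1, THBS3, THBS4 and CD36. Without EWSR1::FLI1 low replicate 1, the ratios of the means were 2.25 for THBS2, 4.16 for THBS3 and 2.51 for THBS4, and the same 5 genes had both remaining libraries above all EWSR1::FLI1 high libraries. The share of all genes with both remaining libraries above, or below, the other group was not counted. Since this contrast chose the members, nothing is read from these counts.

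**Figure D1:**
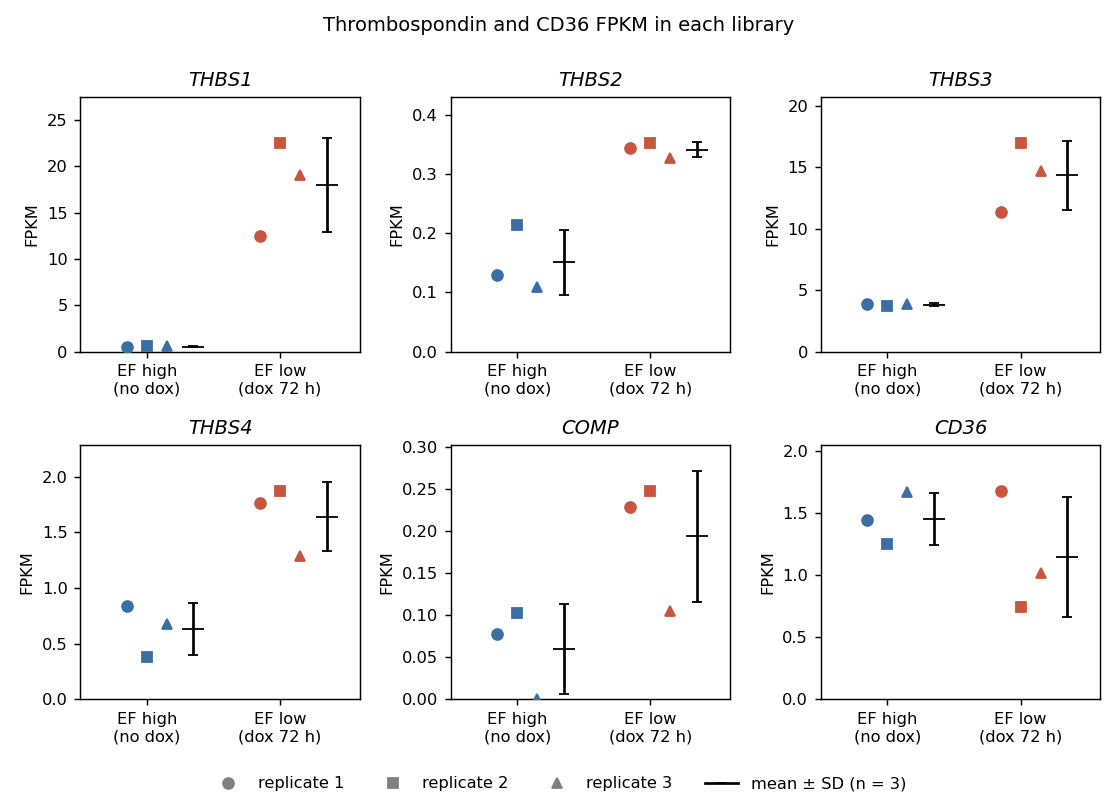
FPKM of the 5 thrombospondins and CD36 (y axis, FPKM, a separate scale for each gene) in EWSR1::FLI1 high (EF high, no dox) and EWSR1::FLI1 low (EF low, dox 72 h) libraries; symbols mark the replicate and bars the mean ± SD (n = 3). THBS1 and THBS3 are widely separated between groups, COMP rests on at most 5 reads per library, and the CD36 values overlap because EWSR1::FLI1 low replicate 1 is at 1.68 FPKM.

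The summed level of the thrombospondins and its make-up both differed between conditions. The 5 genes had summed FPKM values of 5.39, 4.95 and 5.23 (EWSR1::FLI1 high, replicates 1 to 3) against 26.1, 41.9 and 35.4 (EWSR1::FLI1 low, replicates 1 to 3), and the groups did not overlap. Without THBS1, the sums were still 4.64 ± 0.280 and 16.5 ± 2.87 FPKM (SD, n = 3). THBS3 made up 73.3% ± 1.10 of the summed FPKM in EWSR1::FLI1 high and 41.8% ± 1.54 in EWSR1::FLI1 low (SD, n = 3). THBS1 made up 10.6% ± 1.77 and 51.6% ± 3.50, so that the leading thrombospondin per length of transcript was THBS3 before and THBS1 after knockdown. The ratio of THBS1 to THBS3 FPKM was 0.119, 0.160 and 0.153 (EWSR1::FLI1 high, replicates 1 to 3) against 1.09, 1.33 and 1.29 (EWSR1::FLI1 low, replicates 1 to 3). THBS4 made up 12.05% ± 4.02 and 4.95% ± 1.61, although its own FPKM was higher in EWSR1::FLI1 low.

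By mean FPKM, the order in EWSR1::FLI1 high was THBS3, CD36, THBS4, THBS1, THBS2 and COMP. THBS4 and THBS1 overlapped there, and the other neighbours in the order did not. The order in EWSR1::FLI1 low was THBS1, THBS3, THBS4, CD36, THBS2 and COMP. THBS1 and THBS3 overlapped across libraries but kept this order within each, and THBS4 and CD36 overlapped.

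**Figure D2:**
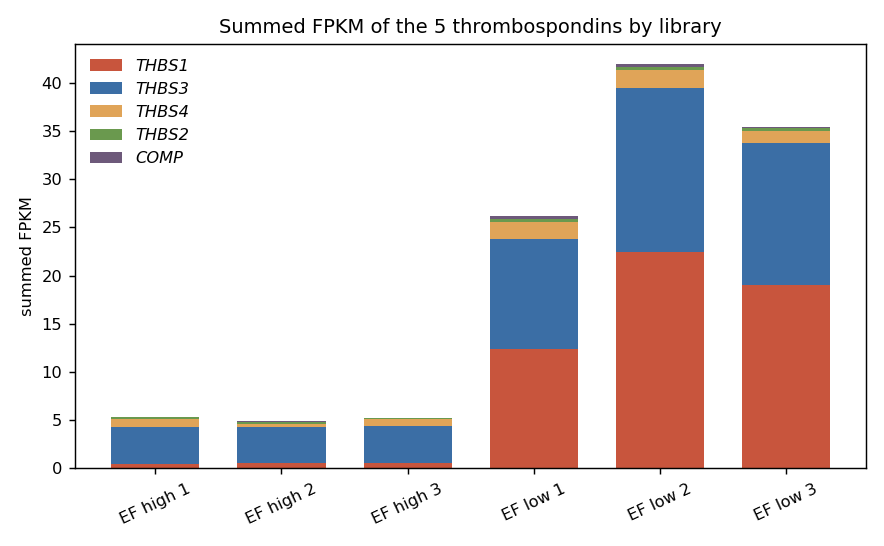
Stacked bars of the FPKM of the 5 thrombospondins (y axis, summed FPKM) in each of the 6 libraries (x axis). The bars reach 4.95 to 5.39 FPKM in EWSR1::FLI1 high, mostly THBS3, and 26.1 to 41.9 FPKM in EWSR1::FLI1 low, where THBS1 is the largest segment in each library.

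THBS3 and THBS4 each start next to a metaxin gene on the opposite strand. Metaxins are proteins of the outer mitochondrial membrane. MTX1 overlaps the start of THBS3 by 357 bases, and MTX3 starts 48 bases from THBS4 (GENCODE on GRCh37). The windows before the THBS3 start nearest to MTX1 (chr1:155178970-155179219, minus strand) and before THBS4 (chr5:79286905-79287154, plus strand) shared the word GCCGCCATCTTGC, the longest run of letters common to them, which 10 of the 35116 promoters held on either strand (0.0285%). It was looked for after the sequences were seen and picked because both windows hold it. The 10 therefore include both, and its rarity adds no support. On the opposite strand its letters hold an annotated start codon of the metaxin gene, which in MTX1 lies 149 codons after the start of the canonical coding sequence and in MTX3 is the canonical start. The 60 coding bases from these start codons are shown because the shared word reaches into them. They lie at chr1:155179043-155179102, plus strand, and chr5:79287002-79287061, minus strand (GRCh37), within coding exons, and capitals mark the 44 bases that are identical (73.3%).
MTX1 coding start: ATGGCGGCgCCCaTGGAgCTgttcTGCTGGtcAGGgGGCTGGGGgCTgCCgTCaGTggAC
MTX3 coding start: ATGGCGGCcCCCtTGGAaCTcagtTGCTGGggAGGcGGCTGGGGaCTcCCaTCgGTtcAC

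In both pairs the thrombospondin was higher and the metaxin lower in EWSR1::FLI1 low. MTX1 was measured at FPKM values of 11.9, 10.9 and 11.7 (EWSR1::FLI1 high) against 6.0, 6.36 and 9.66 (EWSR1::FLI1 low) (replicates 1 to 3). The groups did not overlap, as in the 23.6% of tested genes with all EWSR1::FLI1 low libraries below all others, but the difference missed the limit (log2 fold change of -0.61, SE 0.20, adjusted p = 0.0654). MTX3 was measured at FPKM values of 14.3, 14.0 and 14.6 (EWSR1::FLI1 high) against 5.33, 6.27 and 7.32 (EWSR1::FLI1 low), and it fell (log2 fold change of -1.08, SE 0.17, adjusted p = 0.00347, limma with Benjamini-Hochberg adjustment), as did 3.37% of the genes tested. This call was lost without EWSR1::FLI1 high replicate 1 (adjusted p = 0.0216), 2 (0.0238) or 3 (0.0233) or EWSR1::FLI1 low replicate 2 (0.0115), with log2 fold changes of -1.07, -1.09, -1.06 and -1.08.

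Within each library, the ratio of THBS3 to MTX1 FPKM was 0.327, 0.337 and 0.330 (EWSR1::FLI1 high, replicates 1 to 3) against 1.89, 2.66 and 1.52 (EWSR1::FLI1 low, replicates 1 to 3). The ratio of THBS4 to MTX3 was 0.0585, 0.0272 and 0.0463 (EWSR1::FLI1 high, replicates 1 to 3) against 0.331, 0.300 and 0.176 (EWSR1::FLI1 low, replicates 1 to 3). The scaling of a library does not enter a ratio of genes within it. Both ratios were separated between groups, but this follows from the values above and adds no support. In each pair the thrombospondin was higher and the metaxin lower in all EWSR1::FLI1 low libraries. Whether counting used the strand is not given in the sources used here, so reads in the overlap of THBS3 and MTX1 cannot be assigned with certainty. FSIP1, which overlaps THBS1 on the opposite strand, was at 1.87 ± 0.264 and 2.06 ± 0.709 FPKM (SD, n = 3; log2 fold change of 0.07, adjusted p = 0.862). GNAT3, inside CD36 on the opposite strand, was at 0.496 ± 0.387 and 0.459 ± 0.279 FPKM.

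**Figure D3:**
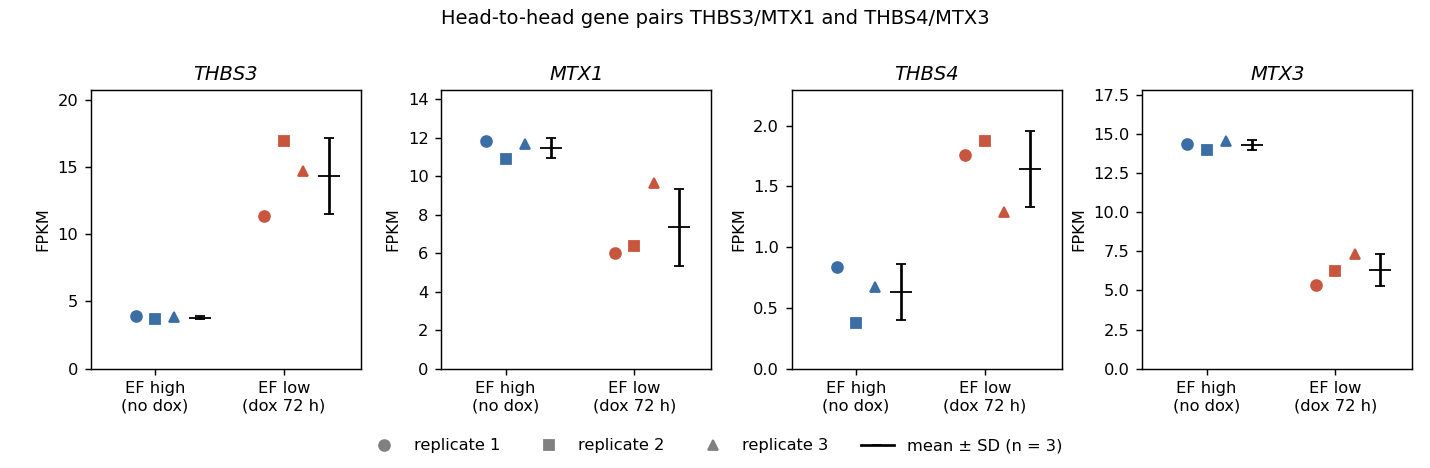
FPKM of THBS3 and its head-to-head neighbour MTX1, and of THBS4 and its neighbour MTX3 (y axes, FPKM, a separate scale for each gene), by library, with the mean ± SD (n = 3). The thrombospondin is higher and the metaxin lower in all EWSR1::FLI1 low libraries, and the MTX1 value of 9.66 FPKM in EWSR1::FLI1 low replicate 3 is the closest to the other group.

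The partners of the thrombospondins were read from 5 gene lists. The lists were chosen with earlier results of these data known, so the shares that passed are descriptions and no independent support. Of 14 receptors and uptake proteins other than CD36, all were tested, 5 rose (35.7%, against 4.51% of the 15504 genes tested that rose and 7.88% that passed in either direction), 0 fell and 9 did not pass, with a median log2 fold change of 1.12 against -0.0483 over all genes tested. ITGA4, the alpha chain of a fibronectin receptor, rose from 7.82 ± 0.943 to 61.2 ± 9.27 FPKM (SD, n = 3; log2 fold change of 2.81, adjusted p = 6.58e-05). ITGAV, whose integrin with ITGB3 binds the RGD motif of THBS1, rose from 28.4 ± 1.37 to 124 ± 38.7 FPKM (2.04, adjusted p = 0.000719). Its partner chain ITGB3 was at 0.214 ± 0.0496 and 4.80 ± 3.58 FPKM, a ratio of means of 22.4 against 4.35 for ITGAV, and narrowly missed the limit (2.04 on the log2(FPKM + 1) scale, adjusted p = 0.0107). ITGB3 passed in 5 of 14 alternative fits: with a pseudocount of 0.1 (3.64, adjusted p = 0.00288), by limma-voom (4.07, 0.00395), with the replicate block (0.00433), with the filter at a mean of 1 FPKM (0.00899) and without EWSR1::FLI1 low replicate 1 (0.000348). ITGB3 did not pass with no filter, by median-ratio scaling, by quantile normalization or by eBayes with no trend. Nor did it pass when any other single library was left out. The highest adjusted p of the 14 limma fits was 0.0458. ITGA6, a laminin receptor chain, rose by 1.49 on the log2 scale (adjusted p = 0.00953), and LRP1, the endocytic receptor that clears thrombospondins, rose from 1.93 ± 0.492 to 6.78 ± 1.69 FPKM (1.40, adjusted p = 0.00264). The fifth was SDC1, a heparan sulfate proteoglycan.

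Of these receptor calls, those of ITGA4 and ITGAV held without any single library. ITGA6 was lost without each library but EWSR1::FLI1 low replicate 1, with adjusted p from 0.0247 to 0.0459, and with no filter (0.0233). LRP1 was lost without EWSR1::FLI1 high replicate 2 (adjusted p = 0.0203) or 3 (0.0180) and by quantile normalization (0.0121), and SDC1 without EWSR1::FLI1 high replicate 2 (0.0194) or 3 (0.0167) or EWSR1::FLI1 low replicate 3 (0.0126). Without EWSR1::FLI1 low replicate 1, 10 of the 14 passed as higher. In that fit 1452 of the 15504 genes tested passed as higher and 726 as lower, against 700 and 522 with all libraries. CD47, the receptor of the THBS1 C-terminal domain, was at 16.4 ± 1.45 and 24.7 ± 8.13 FPKM and did not pass with all libraries (adjusted p = 0.198).

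Of 32 other proteins with thrombospondin type 1 repeats outside the ADAMTS family, 17 reached the level required, of which 5 rose (29.4%, against 4.51% of all genes tested), 0 fell and 12 did not pass (median log2 fold change of 0.76). CTGF, a matricellular protein of the CCN family, rose from 2.07 ± 1.31 to 66.5 ± 34.3 FPKM (SD, n = 3; log2 fold change of 4.43, adjusted p = 0.000207). CYR61, of the same family, rose from 2.81 ± 0.834 to 36.0 ± 9.45 FPKM (3.27, adjusted p = 9.51e-05). THSD4, which promotes fibrillin assembly, rose from 0.612 ± 0.0747 to 5.01 ± 1.15 FPKM (1.88, adjusted p = 0.000287). The netrin receptors UNC5C (2.04, adjusted p = 0.00232) and UNC5B were the others. UNC5C was lost without EWSR1::FLI1 high replicate 2 (adjusted p = 0.0159) or 3 (0.0143) or EWSR1::FLI1 low replicate 3 (0.0139), and held under the other settings. Without EWSR1::FLI1 low replicate 1, 10 passed, of which 3 were lower: HMCN1 (log2 fold change of -1.73, adjusted p = 0.00086), ADGRB3 (-1.26, 0.00159) and ISM2 (-1.25, 0.00516). Among all 15504 genes tested, that fit called 1452 higher and 726 lower, against 700 and 522 with all libraries.

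Of the 7 genes of latent TGF-beta, which THBS1 is known to activate, 3 rose (42.9%, against 4.51% of all genes tested), 0 fell and 4 did not pass (median log2 fold change of 0.81). TGFB2 rose from 0.572 ± 0.0520 to 20.4 ± 4.42 FPKM (SD, n = 3; log2 fold change of 3.75, adjusted p = 1.74e-05) and passed without any single library. TGFB1 was at 9.35 ± 3.21 and 10.4 ± 3.58 FPKM (0.14, adjusted p = 0.778). LTBP1 (2.32, adjusted p = 0.00374) and LTBP3 (0.81, adjusted p = 0.00795), which bind latent TGF-beta in the matrix, also passed. LTBP1 was lost without EWSR1::FLI1 high replicate 2 (adjusted p = 0.0232) or 3 (0.0217) or EWSR1::FLI1 low replicate 3 (0.0142), and LTBP3 without each library but EWSR1::FLI1 low replicate 1, with adjusted p from 0.0177 to 0.0470. LTBP3 was also lost with the replicate block (adjusted p = 0.0105), by quantile normalization (0.0120) and with no filter (0.0246), and LTBP1 with no filter (0.0120).

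Of 9 cartilage matrix partners of COMP, 4 were tested, 1 rose (25%, against 4.51% of all genes tested), 0 fell and 3 did not pass (median log2 fold change of 0.50). The gene that rose was FN1, the fibronectin gene, from 332 ± 62.4 to 998 ± 264 FPKM (SD, n = 3; log2 fold change of 1.57, adjusted p = 0.00159), a call lost without EWSR1::FLI1 high replicate 2 (0.0147) or 3 (0.0117) or with no filter (0.0104). Of the cartilage markers, SOX9 was at 4.03 ± 1.17 and 18.7 ± 2.75 FPKM (1.98, adjusted p = 0.000532), while COL2A1 was at 0.233 ± 0.0596 and 0.347 ± 0.191 and ACAN at 0.110 ± 0.0321 and 0.208 ± 0.132 FPKM. The 3 cartilage markers summed to 3.26 to 5.54 FPKM and 15.8 to 21.1 FPKM, mostly SOX9, and COL2A1 and ACAN overlapped between groups.

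Of 11 paralogs, kinases and fatty acid genes around CD36, 1 rose (9.09%, against 4.51% of all genes tested and 7.88% in either direction), 0 fell and 10 did not pass (median log2 fold change of 0.68). A count of 1 does not set the list apart from other genes. It was FABP3, a fatty acid-binding protein, from 0.734 ± 0.0581 to 6.32 ± 1.99 FPKM (SD, n = 3; log2 fold change of 2.04, adjusted p = 0.00049). Without EWSR1::FLI1 low replicate 1, 5 passed, in a fit where 1452 of the 15504 genes tested passed as higher and 726 as lower. Markers of other cells that carry CD36 or thrombospondins were also read. CD68 was at 7.56 ± 1.88 and 13.9 ± 8.02 FPKM (adjusted p = 0.367), with overlap between groups. PECAM1 was at 0.331 ± 0.0465 and 1.12 ± 0.379 FPKM (0.66, adjusted p = 0.0333) and CD14 at 0.134 ± 0.132 and 0.334 ± 0.0634 FPKM, and both, like SOX9, had no overlap between groups. CD14 rested on 0 to 8 reads per library. The other 9 of the 13 markers overlapped. All EWSR1::FLI1 low libraries were above all EWSR1::FLI1 high libraries in 14.3% of the 24488 genes above 0 and in 17.5% of those tested. All 3 leukocyte, 3 endothelial, 2 platelet and 2 adipocyte markers were above 0 in some library. The leukocyte sums were 6.21 to 9.16 and 5.64 to 19.9 FPKM, mostly CD68, with PTPRC at 0.408 ± 0.129 and 0.402 ± 0.230 FPKM (SD, n = 3). The endothelial sums were 0.614 to 0.806 and 1.12 to 2.17, the platelet sums 0.0960 to 0.514 and 0.173 to 0.609, and the adipocyte sums 0.329 to 0.457 and 0.318 to 0.644. Of the 13 markers of other cell types, 7 (53.8%) were highest in EWSR1::FLI1 low replicate 1 and 6 (46.2%) in EWSR1::FLI1 low replicate 2. Of the 7775 genes with a mean FPKM from 0.1 to under 0.5, 51.6% and 15.1% were highest in these libraries. The part of the markers in the CD36 and thrombospondin levels was not tested.

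**Figure D4:**
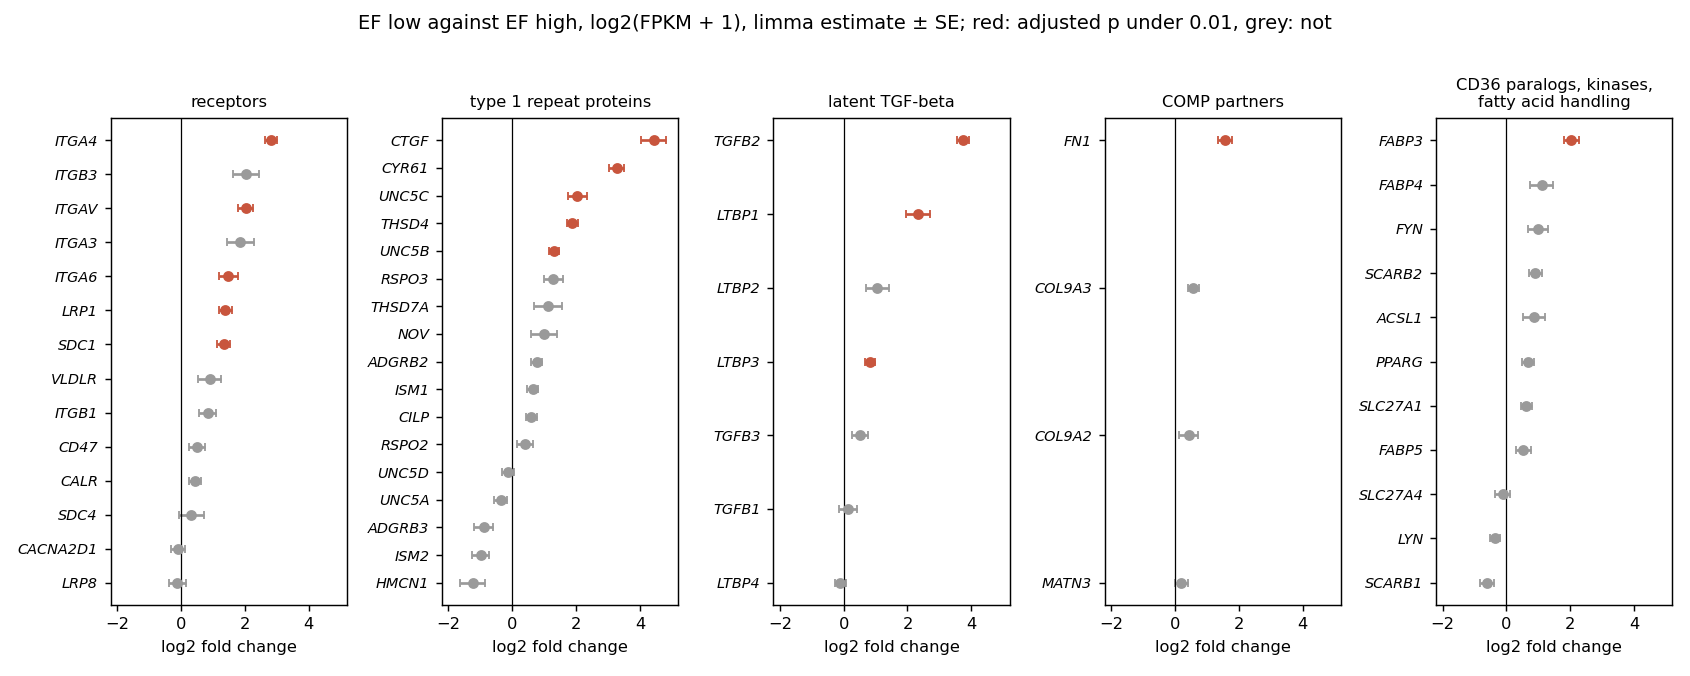
Log2 fold change ± SE (x axes, EF low against EF high, limma on log2(FPKM + 1)) of each tested gene of the 5 partner lists (y axes), red where the adjusted p was under 0.01. CTGF at 4.43 and TGFB2 at 3.75 are the furthest to the right, and no red point lies below 0.

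The tested genes whose log2(FPKM + 1) followed a member most closely over the 6 libraries were found by Pearson's r, a description in which the points share libraries and fall into the 2 groups. For THBS1 they were IGFBP7, RGS20 and PLAU (r = 0.999 each). IGFBP7, a secreted matrix protein, was at 1.02 and 143 FPKM on average, and PLAU, the urokinase gene, at 7.45 and 70.7 FPKM. For THBS3 they were TSC22D1, TANC1 and PHLDA1, for THBS4 CILP, KIAA2026 and TBX20, and for CD36 STAM-AS1, MIR181B2 and HOXB3. Some of these rested on few reads per library: MIR181B2 on 0 to 3, STAM-AS1 on 7 to 24, CILP on 4 to 45 and TBX20 on 8 to 29.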

How the data were processed

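RNA of 6 A673/TR/shEF samples, 3 per condition by their labels, was depleted of ribosomal RNA and sequenced as paired ends (ScriptSeq v2 kit). The authors aligned reads to GRCh37 with STAR 2.5.0b, and the submitters' processing notes also name Cufflinks 2.2.1, bedtools 2.17.0 and DESeq2 1.6.3. The authors deposited FPKM values per symbol and library, already scaled between libraries. From the authors' comparison table only the mean signal (mean normalized count per gene) was used; its fold changes and p-values were not. FPKM multiplied by the ratio of that mean count to the mean FPKM gave whole reads for 100% of values within 0.1 reads, which set the depth and the floor of 3 reads.

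The 15504 genes whose FPKM averaged 0.5 or more were tested with limma 3.58.1 (R 4.3.3; lmFit, eBayes with trend) on log2(FPKM + 1), with Benjamini-Hochberg adjustment over these genes and a limit of 0.01. For THBS2 and COMP, fold changes in the closing section come from the fit without this filter. Members and lists were chosen with earlier results of these data known. Genes named are the members, the list genes that passed (values for up to 4 a list) with FLI1, overlapping or neighbouring genes and the 3 genes closest to each member by Pearson's r; ITGB3, CD47, TGFB1, HMCN1, ADGRB3 and ISM2, and the markers' values, were named after their values were seen. Antisense transcripts were not analysed here. CTGF, CYR61 and NOV are the files' symbols for CCN genes. Upstream sequences are RefSeq windows (GRCh38.p14) matched exactly onto GRCh37, and gene spans are GENCODE v44 lifted to GRCh37. Replicates differed by more than sampling noise (chi-square per degree of freedom of 4.25 to 31.5), so each library is 1 replicate. The fit was tested on simulated data. Python 3.11.15 with pandas 2.3.3 and matplotlib 3.10.9 was used otherwise. Alternatives were a pseudocount of 0.1, no filter or one at a mean of 1 FPKM, limma-voom on the recovered reads, quantile normalization, a replicate block, median-ratio scaling, eBayes with no trend, a limit of 0.05, and leaving out each library. Values without EWSR1::FLI1 low replicate 1 outside the fit were added after the data were seen.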

Additional observations from a re-analysis of the deposited data

How the results depend on the processing

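Every alternative run kept the direction of each member's fold change (14 for THBS1, THBS3, THBS4 and CD36, 12 for THBS2 and COMP), and the size of low members depended most on the scale: COMP ranged from 0.13 to 1.43, THBS2 from 0.17 to 1.17, THBS4 from 0.58 to 1.34 and THBS1 from 3.41 to 5.0 on the log2 scale. CD36 ranged from -0.41 to -0.07. The latter, without EWSR1::FLI1 low replicate 2, was smaller in size than its SE of 0.20, so its sign is uncertain. Across all genes, 700 passed as higher and 522 as lower, a share higher of 57.3%. Leaving out 1 library gave 287 to 1452 higher and 156 to 726 lower, with the share from 37.8% (without EWSR1::FLI1 low replicate 3) to 67.4%. Both counts were highest without EWSR1::FLI1 low replicate 1. Without the filter the counts were 456 and 297, and at a limit of 0.05 they were 1530 and 1537. Quantile normalization gave 1000 lower, limma-voom 784 lower. With the replicate block the counts were 916 and 786, with 7 receptors, 5 type 1 repeat proteins, 2 latent TGF-beta genes, 1 COMP partner and 1 CD36 list gene. Whether the numbers pair samples was not settled. Deviations of same-numbered samples correlated by 0.271, 0.0889 and 0.124, and those of differently numbered samples by -0.289 to 0.189.

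With 1 library left out, the receptors that passed numbered 2 (without EWSR1::FLI1 high replicate 2 or 3) to 10 (without EWSR1::FLI1 low replicate 1), the type 1 repeat proteins 4 to 10 (3 of the 10 lower), the latent TGF-beta genes 1 to 4, the COMP partners 0 to 1 and the CD36 list 1 to 5. The latent TGF-beta genes numbered 1 and the COMP partners 0 without the filter. The type 1 repeat proteins numbered 8 by limma-voom and 10 at a limit of 0.05 (ISM2 lower in both), the COMP partners 2 at 0.05, and the CD36 list 2 by quantile normalization, 2 by limma-voom and 4 at 0.05. The causes were not tested. Reads limit THBS2 and COMP most.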
